A study of Mus musculus with 63 samples.

Results

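The miRNAs described are the mature products of the mouse genes Mir192, Mir194-1, Mir194-2 and Mir215: mmu-miR-192-5p, mmu-miR-192-3p, mmu-miR-194-5p, mmu-miR-194-1-3p, mmu-miR-194-2-3p and mmu-miR-215-5p. They were taken as every entry of the count table with one of these names, and make up 6 of the 1966 mature names and 7 of the 2110 genomic loci in the count table, since miR-194-5p was counted at a locus on chromosome 1 and at another on chromosome 19. Small RNA was sequenced from 4 populations sorted from digested kidney cortex of male C57BL/6 mice aged 8 to 12 weeks, with no transgene or deletion in any group: endothelial cells (ECs, CD31+), F4/80hi macrophages (Macs), proximal tubular cells (PT cells, which bind the lectin LTL) and PDGFR-β+ stromal cells. Mice were sham operated, had a ureter obstructed for 2 days (UUO-2) or 7 days (UUO-7), or had 7 days of obstruction reversed for 14 days (R-UUO), with 4 mice in each group and 3 PDGFR-β+ libraries at UUO-7, which gave 63 libraries. The mice sequenced were those nearest to their group's mean of the injury gene Havcr1, so the spread between mice may be smaller than in the whole experiment.

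miRNAs of this family guide Argonaute proteins to messenger RNAs through their seed, the stretch near the 5′ end that pairs with the target. miR-192 and miR-194 are transcribed together as clusters, are abundant in kidney tubules, liver and intestine, and their transcription is known to be driven by hepatocyte nuclear factors and by p53. miR-192-5p and miR-215-5p share a seed and are usually treated as a single targeting family, whereas miR-194-5p has another seed.

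The mature sequences show why the members have to be read together, because reads of some of them are hard to tell apart. They were taken from RefSeq for GRCm38.p6, in which all 7 loci matched by name and position, and capitals mark the seed, bases 2 to 8 from the 5′ end.
miR-192-5p, chr19:6264857-6264877, plus strand: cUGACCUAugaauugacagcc
miR-215-5p, chr1:185313610-185313630, plus strand: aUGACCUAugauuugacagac
miR-194-5p, chr19:6264658-6264679 and chr1:185313325-185313346, both plus strand: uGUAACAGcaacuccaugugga
miR-194-2-3p, chr19:6264694-6264715, plus strand: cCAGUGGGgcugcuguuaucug
miR-194-1-3p, chr1:185313360-185313381, plus strand: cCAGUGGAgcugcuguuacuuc
miR-192-3p, chr19:6264900-6264921, plus strand: cUGCCAAUuccauaggucacag
miR-192-5p and miR-215-5p had the same base at 18 of 21 positions and differed by C1A, A12U and C20A (the base of miR-192-5p, the position from the 5′ end and the base of miR-215-5p). Their seed was found in no other of the 1679 mature names in the reference table, and the seed of miR-194-5p was found in that name alone. The miR-194-5p sequence was identical at its 2 loci, so a read of it cannot be assigned to one of them from its sequence. The 3p arms of the hairpins differed at 4 of 22 positions (A8G, C19U, U20C and C22G, from miR-194-1-3p to miR-194-2-3p), of which A8G lies in the seed.

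The genes lie in a pair of clusters. On chromosome 19 the hairpins of Mir194-2 and Mir192 were 115 bases apart and lay between annotated genes, 2307 bases downstream of Atg2a and 3862 bases from the long noncoding gene Gm14963. On chromosome 1 the hairpins of Mir194-1 and Mir215 were 195 bases apart, inside the noncoding gene 2010103J01Rik on the same strand (Mir215 overlapping an exon and Mir194-1 none) and inside Iars2, an isoleucyl-tRNA synthetase gene, on the opposite strand, where neither overlapped an exon.

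Total counts of assigned reads ranged from 616565 to 10819385 per library and were lowest in PT cells (616565 to 5093294), where they also differed between conditions, from 622689 to 987306 in sham and from 1665115 to 5093294 at UUO-7. Most marker miRNAs followed the sorts in sham: miR-126a led in ECs, miR-142a and miR-223 in Macs, miR-199a, miR-214, miR-143 and miR-145a in PDGFR-β+ cells, and the sum of the miR-200 family with miR-141 was higher in PT cells (5519 to 5900 CPM, CPM being counts scaled to 1e+06 per library) than in the other types (543 to 2268 CPM). Within this sum, miR-200a-3p, miR-200b-3p, miR-200c-3p and miR-429-3p were called higher in PT cells (log2 1.31 to 3.19 against the mean of the other types). miR-141-3p was not (log2 -0.63, edgeR adjusted p = 0.122). miR-204-5p, listed as a tubule marker, went against the PT label in sham, at 91.8 to 139 CPM in PT cells and 2087 to 3586 CPM in ECs. A PT library stood apart: R-UUO replicate 1 held 25839 CPM of stroma markers (3825 to 5842 in the other R-UUO PT libraries) and 40.5% of its counts were miR-10a-5p (20.1% at the lowest of the group), and results that rest on it are given with and without it.

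Of the 7 loci, those of miR-192-5p and of miR-194-5p carried nearly all the reads of the family. miR-192-5p had 2025419 counts over the 63 libraries, miR-194-5p had 53480 at chromosome 19 and 1118 at chromosome 1, miR-194-2-3p had 644, miR-215-5p had 469 and miR-192-3p had the fewest of those detected. miR-194-1-3p had 0 counts in all 63 libraries, against 262859130 counts in all, which allows at most 0.0114 CPM at a limit of 3 counts, counting error only. A low-count filter over all libraries kept the other 6 loci; within a cell type it kept 5 in PT cells, 4 in ECs and 3 each in Macs and PDGFR-β+ cells. The chromosome 1 locus received a small share of the miR-194-5p counts, with medians of 2.00% in PT cells, 2.33% in ECs, 1.70% in Macs and 2.56% in PDGFR-β+ cells. Since the sequence is shared, how much each locus transcribes cannot be told from these counts.

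miR-192-5p was the most abundant miRNA of healthy PT cells. It ranked 1st in each of the 4 sham PT libraries and took 14.9%, 17.6%, 16.6% and 17.4% of all their counts, whereas it ranked 28th to 31st in sham Macs, 36th to 45th in ECs and 34th to 50th in PDGFR-β+ cells. On a scale shared by all libraries (CPM after edgeR's TMM scaling, which sets the bulk of miRNAs equal between libraries) the sham PT libraries held 97642, 121745, 126182 and 127492 CPM. Sham Macs held 3532, 3425, 3503 and 5095 CPM, ECs held 2544, 2672, 3895 and 3062, and PDGFR-β+ cells held 2002, 2558, 3724 and 3159. The lowest PT library was thus far above the highest library of any other type, and the other 3 populations overlapped. Their order depended on the scale, because by library size alone Macs (5274 to 7274 CPM) lay above ECs (1736 to 2463) and PDGFR-β+ cells (1314 to 2891) without overlap.

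In sham, miR-192-5p and both loci of miR-194-5p were called higher in PT cells than in the mean of the other cell types, as were 29.1% of the 671 loci tested (edgeR quasi-likelihood test, FDR 0.05 and fold change 1.5). The loci of miR-194-5p share their sequence, so they are not separate measurements. miR-192-5p was 36.6-fold higher (log2 5.19, SE 0.202, adjusted p = 1.46e-29) and miR-194-5p at chromosome 19 was 26.6-fold higher (log2 4.73, SE 0.162, adjusted p = 4.87e-32). miR-194-2-3p and miR-192-3p passed the low-count filter within PT cells alone, so that their being higher there was fixed by the filter and their counts are given as a description. miR-194-2-3p had 37, 35, 48 and 21 counts in the sham PT libraries and 0 to 7 in any sham library of another type, although PT libraries were the shallowest. miR-192-3p, the arm of the hairpin that is mostly discarded, had 9, 6, 10 and 6 counts in sham PT libraries and 0 in 8 of the 12 other sham libraries. miR-192-5p and both loci of miR-194-5p were also called higher in PT cells at UUO-2 (29.2% of all loci), at UUO-7 (26.7%) and after reversal (27.1%). The log2 differences for miR-192-5p were 4.74, 4.61 and 4.89.

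**Figure D1:**
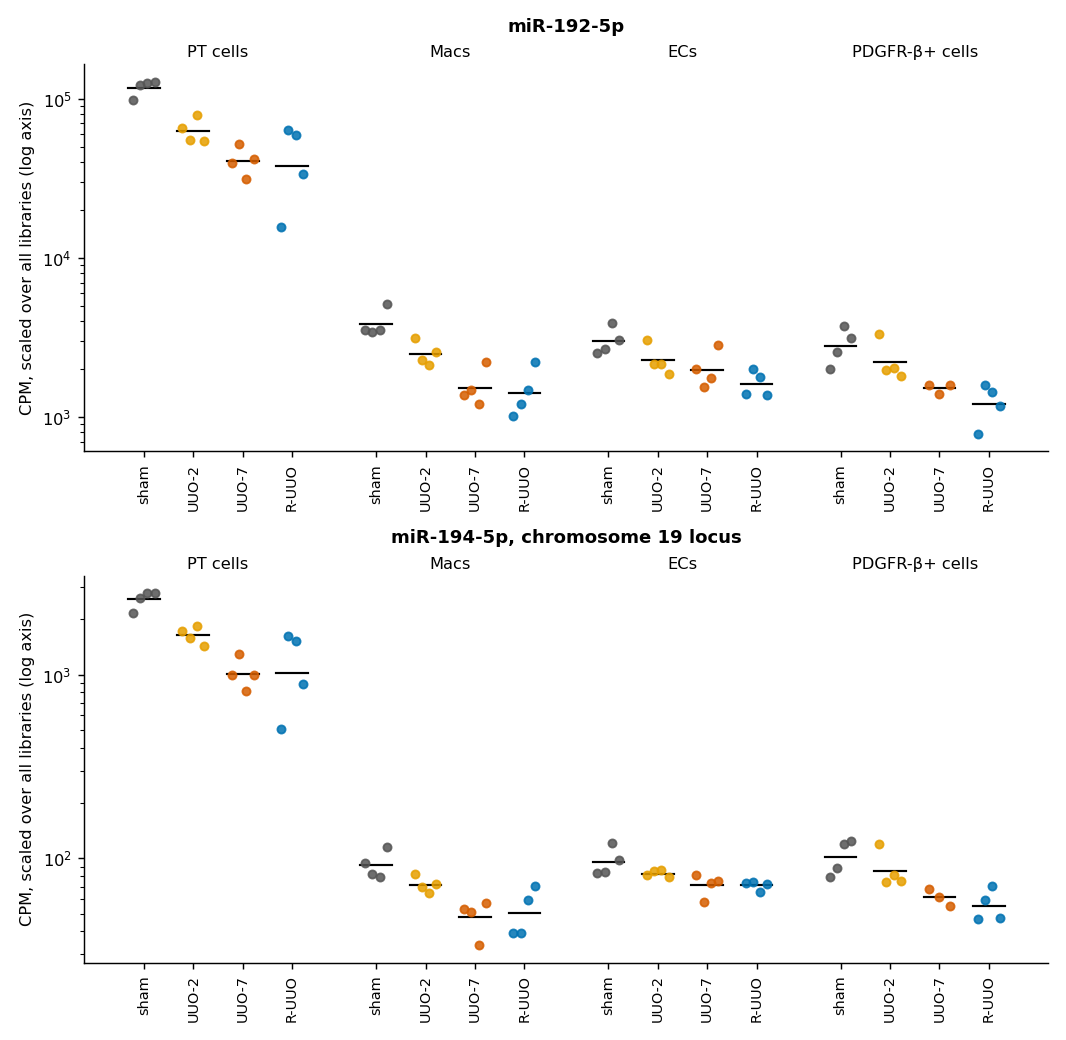
CPM of miR-192-5p (upper panel) and of miR-194-5p at its chromosome 19 locus (lower panel) in each library on a log axis, scaled over all 63 libraries; points are mice and lines are geometric means. The sham PT libraries hold 97642 to 127492 CPM of miR-192-5p, and the lowest PT library, at 15574 CPM, is still higher than the highest library outside PT cells, at 5095 CPM.

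miR-215-5p, which shares the seed of miR-192-5p, did not share its distribution. Sham PT libraries had 4, 2, 2 and 0 counts, ECs had 14, 18, 16 and 3, Macs had 28, 9, 11 and 19, and PDGFR-β+ cells had 9, 4, 10 and 7. As CPM the populations were close, with 1.92 in PT cells, 1.39 in ECs, 2.95 in Macs and 1.48 in PDGFR-β+ cells when the libraries of a type were pooled. The difference between PT cells and the others was a log2 of -0.42 in sham (95% CI -1.76 to 0.92, adjusted p = 0.647) and 0.23 by library size alone (adjusted p = 0.831). In R-UUO miR-215-5p was called lower in PT cells (log2 -1.93, edgeR adjusted p = 0.0432), as were 23.1% of all loci tested, on 2, 1, 0 and 0 counts. That call was lost in DESeq2 (adjusted p = 0.0799), with no filter (adjusted p = 0.115) and without R-UUO mouse 2, 4 or 5, sham mouse 1 or 3, UUO-2 mouse 4 or UUO-7 mouse 5 (adjusted p up to 0.130). As a share of the reads with this seed, miR-215-5p made up a median of 0.00164% in PT cells, 0.0773% in ECs, 0.0745% in Macs and 0.114% in PDGFR-β+ cells. Across the 63 libraries its log2 CPM had a Pearson r of -0.20 with that of miR-192-5p, a description in which libraries share cell types and mice.

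The injured kidney was compared with sham to ask how the family changed within PT cells. miR-192-5p, 3.07-fold lower at UUO-7 than in sham, and miR-194-5p, 2.70-fold lower at its chromosome 19 locus, were the members that fell. On a scale set within PT cells, miR-192-5p was at 116763, 140349, 147854 and 152279 CPM in sham, 76188, 62603, 91037 and 60064 at UUO-2, 42558, 58807, 35255 and 45116 at UUO-7, and 18886, 69908, 70208 and 37781 in R-UUO. The sham, UUO-2 and UUO-7 groups did not overlap with each other, and R-UUO spread the widest, from below the lowest UUO-7 library to above the highest, with none of its libraries reaching the sham range. miR-192-5p ranked 3rd to 4th among the loci of a PT library at UUO-2, 5th to 8th at UUO-7 and 3rd to 14th in R-UUO.

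Of the 330 loci tested in PT cells at UUO-2, 4.24% were called lower and 14.8% higher. Among the 5 member loci tested, miR-192-5p was the single one called, and it was lower (log2 -0.94, SE 0.313, adjusted p = 0.0404, edgeR). This call was close to the threshold: it was lost by library size alone (adjusted p = 0.0775), with loci of a name summed (0.0540), with the replicate block (0.0508), and without any of the 4 sham replicates, UUO-2 replicate 1, 2 or 4 or UUO-7 replicate 5 (log2 from -1.11 to -0.86 over all libraries left out, adjusted p up to 0.130). miR-194-5p at chromosome 19 had a log2 change of -0.69 (adjusted p = 0.0711) and was called in DESeq2 (adjusted p = 0.0369) and without R-UUO replicate 1 or 2 (adjusted p = 0.00514 and 0.0410).

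At UUO-7, 3 of the 5 loci tested were called lower, against 17.6% of all loci tested. Both loci of miR-194-5p are among them, and since they share a sequence they are not separate measurements. miR-192-5p fell by 1.62 on the log2 scale (SE 0.318, 95% CI -2.29 to -0.94, adjusted p = 0.000732). miR-194-5p fell by 1.44 at chromosome 19 (SE 0.265, adjusted p = 0.000479) and by 1.18 at chromosome 1 (SE 0.283, adjusted p = 0.00348). These 3 calls held whichever library was left out (miR-192-5p -1.78 to -1.54) and by library size alone, where the median of all loci moved from 0.00 to -0.36 miR-192-5p changed by -1.92, and the calls over all loci went from 84 higher and 58 lower to 61 higher and 79 lower. The scarcer arms had values of the same sign with wide intervals, -0.91 for miR-194-2-3p (95% CI -1.98 to 0.15, adjusted p = 0.142) and -0.46 for miR-192-3p (95% CI -1.54 to 0.62, adjusted p = 0.482), from 31 to 67 and 11 to 19 counts in the UUO-7 libraries. Counts in bulk RNA cannot tell fewer tubular cells in a sort from less of a miRNA in each cell.

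The miR-194-5p values in PT cells ran alongside those of miR-192-5p. At the chromosome 19 locus it was at 2606, 3019, 3254 and 3314 CPM in sham, at UUO-2 2022, 1817, 2105 and 1594, after UUO-7 1064, 1455, 911 and 1079, and with reversal 613, 1784, 1794 and 992. The groups at UUO-2 and UUO-7 lay below sham without overlap. At the chromosome 1 locus the sham libraries held 44.7 to 67.7 CPM and the UUO-7 libraries 18.9 to 28.4, again without overlap.

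Reversal of the obstruction for 14 days was compared with UUO-7 to ask whether the members returned. None of the 5 loci was called in either direction (edgeR, 0 at an unadjusted p under 0.05, DESeq2 0), beside 2 of the 330 loci tested called higher and 3 lower (0.909%). The log2 difference was 0.11 for miR-192-5p (95% CI -0.54 to 0.77) and 0.20 for miR-194-5p at chromosome 19 (95% CI -0.35 to 0.75), so that a return to the sham level, which lay 1.62 and 1.44 above UUO-7, was outside both intervals. Over the libraries left out these differences ran from -0.17 to 0.41 and from -0.06 to 0.46, so that their sign was not fixed. Against sham, 3 loci were still called lower in R-UUO (13% of all loci), of which those of miR-194-5p are again not separate measurements. The log2 changes were -1.50 for miR-192-5p (SE 0.317, edgeR adjusted p = 0.00166), -1.24 for miR-194-5p at chromosome 19 (adjusted p = 0.00185) and -1.07 at chromosome 1 (adjusted p = 0.00850, lost with no filter at 0.0597). Without the PT library of R-UUO replicate 1 the miR-192-5p difference from UUO-7 was 0.41 (adjusted p = 0.244) and that from sham -1.21 (adjusted p = 0.000223), and the same 3 loci were called against sham. By library size alone the median of all loci against sham moved from 0.03 to -0.41, and the calls went from 85 higher and 43 lower to 51 and 65.

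**Figure D2:**
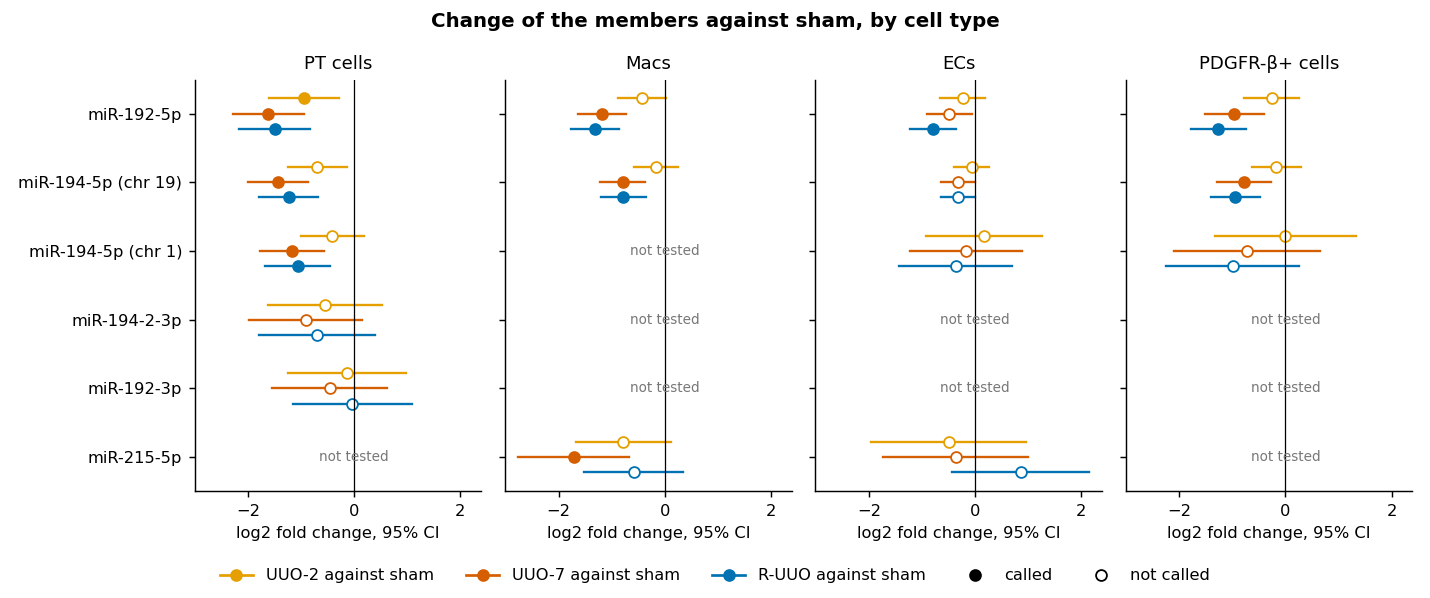
Log2 fold change against sham (x axis, line 95% CI) of each member in each cell type, by edgeR within the cell type; filled points passed FDR 0.05 with a fold change of 1.5, and loci under the low-count filter are marked as not tested. In PT cells miR-192-5p lies at -0.94, -1.62 and -1.50 in UUO-2, UUO-7 and R-UUO.

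In the PT libraries the summed markers of stroma and of leukocytes were higher at UUO-7 than in sham, whereas those of ECs overlapped. A sum does not show how each of its miRNAs moved. Stroma markers, the sum of miR-199a, miR-214, miR-143 and miR-145a, were at 1617 to 3496 CPM in sham PT libraries, 6672 to 10151 at UUO-2, 7030 to 18215 at UUO-7 and 3825 to 25839 in R-UUO, on the scale of all libraries. The UUO-7 and R-UUO libraries with most stroma markers (UUO-7 replicate 4 and R-UUO replicate 1) had the least miR-192-5p of their groups, 35255 and 18886 CPM on the scale set within PT cells. In contrast, UUO-2 replicate 3, with the most stroma markers of its group (10151 CPM), had the most miR-192-5p of it, 91037 CPM on the scale set within PT cells. EC markers were at 565 to 819 CPM in sham and 661 to 918 at UUO-7, and leukocyte markers at 73.2 to 106 and 136 to 236. The part of stroma RNA in the fall of miR-192-5p was not tested. The epithelial list as a sum moved the other way from miR-192-5p, from 5519 to 5900 CPM in sham to 8428 to 11188 CPM at UUO-7.

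**Figure D3:**
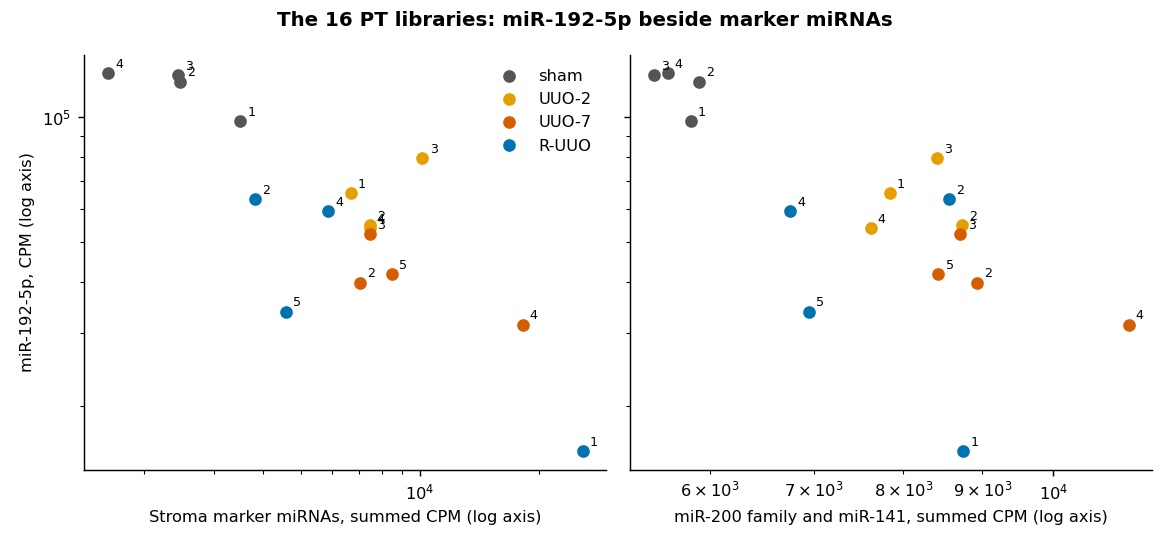
miR-192-5p in the 16 PT libraries (y axis, CPM scaled over all libraries, log axis) against the summed CPM of stroma markers (left) and of the miR-200 family with miR-141 (right), numbered by replicate. R-UUO replicate 1 lies at 25839 CPM of stroma markers and 15574 CPM of miR-192-5p, and the 4 sham libraries lie at the upper left of both panels.

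The same members were measured in the cells that surround the tubule, where they are scarce. In Macs, miR-192-5p was at 5508, 5364, 5705 and 7483 CPM in sham (scaled within Macs), 5317, 4095, 3657 and 4809 at UUO-2, 2421, 2590, 2237 and 3364 at UUO-7, and 1683, 1940, 2272 and 3765 in R-UUO. The UUO-7 and R-UUO libraries lay below all 4 sham libraries. miR-194-5p at chromosome 19 was at 147, 129, 129 and 170 CPM in sham Macs, 93.2, 89.1, 62.9 and 86.8 at UUO-7 and 65.1, 62.6, 91.6 and 120 in R-UUO, again without overlap with sham. At UUO-7 the 3 members tested were called lower, against 16.8% of all loci in Macs: miR-192-5p by a log2 of -1.18 (SE 0.216, adjusted p = 0.000200), miR-194-5p by -0.79 (SE 0.199, adjusted p = 0.00315) and miR-215-5p by -1.72 (SE 0.496, adjusted p = 0.00821). The miR-215-5p change rested on 28, 9, 11 and 19 counts in sham and 4, 3, 4 and 2 at UUO-7, and the locus passed the filter in Macs and ECs alone. In R-UUO, miR-192-5p (log2 -1.32, adjusted p = 0.000131) and miR-194-5p (-0.78, adjusted p = 0.00500) were still lower than in sham (10.5% of all loci called lower). Between R-UUO and UUO-7 no member was called in Macs by edgeR or DESeq2 (1 at an unadjusted p under 0.05, miR-215-5p, log2 1.13). Of the 457 loci tested there, 58 were called higher and 33 lower (7.22%). At UUO-2 none was called (edgeR and DESeq2, 0 at an unadjusted p under 0.05), beside 84 of 457 loci called higher and 42 lower (9.19%). There miR-192-5p was at -0.43 (edgeR adjusted p = 0.132), but it was called without R-UUO replicate 1, 2, 4 or 5, sham replicate 1, 2 or 3, UUO-2 replicate 1 or UUO-7 replicate 2 or 4 (log2 from -0.69 to -0.44 and adjusted p from 0.00739 to 0.149 over all libraries left out). The reported Mac value lay outside that range, as did those of miR-194-5p at UUO-2 (-0.17, range -0.41 to -0.21) and of both at UUO-7 (-1.18, range -1.44 to -1.19, and -0.79, range -1.03 to -0.83). In R-UUO against sham, miR-194-5p (-0.78, range -1.10 to -0.80) and miR-215-5p (-0.59, range -1.02 to -0.62) lay outside too. There miR-192-5p lay inside (-1.32, range -1.73 to -1.31), but outside its range over the other alternatives (-1.58 to -1.39). The median change of all loci in Macs at UUO-2 moved alike, from 0.15 to between -0.07 and 0.09, and the cause was not tested.

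In PDGFR-β+ cells, miR-192-5p was at 1462, 2229, 2814 and 2524 CPM in sham (scaled within the cell type), 2861, 1582, 1668 and 1412 at UUO-2, 1143, 1068 and 1266 at UUO-7, and 638, 1150, 1010 and 959 in R-UUO. The UUO-7 and R-UUO libraries lay below sham. miR-194-5p at chromosome 19 was at 58.1, 77.6, 90.1 and 99.1 CPM in sham, 49.5, 47.4 and 44.0 at UUO-7 and 38.0, 42.6, 49.5 and 38.6 in R-UUO, also below sham. At UUO-7, 2 of 3 loci were called lower (background 14.3%), miR-192-5p by -0.96 (SE 0.265, adjusted p = 0.00647) and miR-194-5p at chromosome 19 by -0.79 (adjusted p = 0.0115). These calls depended on the scale: the median of all loci moved by 0.50 under TMM and by 1.02 under library size alone, and by library size alone miR-192-5p changed by -0.45 (adjusted p = 0.180) and miR-194-5p by -0.28 (adjusted p = 0.331), while the calls over all loci went from 162 higher and 68 lower to 221 higher and 35 lower. In R-UUO the same 2 loci were called lower against sham (log2 -1.26 and -0.94, adjusted p = 0.000599 and 0.00274, 13.8% of all loci called lower), by library size alone too. The summed markers of the sort moved too: the stroma sum was 326479 to 398350 CPM in sham, 145413 to 174163 at UUO-7 and 92519 to 159563 in R-UUO. This sum does not stand for each of its members. In these cells late in injury the authors report a loss of miR-143 and miR-145 but an increase of miR-199 and miR-214. Leukocyte markers were at 53.0 to 171, 273 to 698 and 121 to 205 CPM. The part of stroma or leukocyte markers in these changes was not tested. No member was called at UUO-2 or between R-UUO and UUO-7, by edgeR or DESeq2, and none had an unadjusted p under 0.05. Of the 477 loci tested, 27 were called higher and 3 lower (0.629%) at UUO-2. Between R-UUO and UUO-7, 15 were called higher and 4 lower (0.839%).

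In ECs a member passed the test in R-UUO alone. miR-192-5p was at 1529, 1726, 2418 and 1905 CPM in sham (scaled within ECs), 2271, 1561, 1382 and 1239 at UUO-2, 1396, 1081, 1131 and 1798 at UUO-7, and 997, 1196, 1251 and 928 in R-UUO. The UUO-2 and UUO-7 groups overlapped with sham and the R-UUO group did not. miR-194-5p at chromosome 19 was at 49.8, 54.5, 74.8 and 60.8 CPM in sham ECs and 52.4, 44.4, 45.7 and 49.2 in R-UUO, where the groups overlapped. In R-UUO miR-192-5p was the single member of 4 called, and it was lower (log2 -0.79, SE 0.202, adjusted p = 0.0103). This call was lost without R-UUO replicate 1 or 5 or sham replicate 4 (adjusted p from 0.0544 to 0.0720). Of the 469 loci tested, 24 were called lower (5.12%) and 55 higher in R-UUO. At UUO-7 no member was called by edgeR or DESeq2 (1 at an unadjusted p under 0.05, miR-192-5p, log2 -0.49, adjusted p = 0.114), beside 6.18% of all loci called higher and 5.33% lower. None was called at UUO-2 or between R-UUO and UUO-7 by either tool, and none had an unadjusted p under 0.05 there. Over all 469 loci, 7 were called higher and 1 lower (0.213%) at UUO-2, and 4 higher and 1 lower (0.213%) between R-UUO and UUO-7.

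Because miR-192-5p is so abundant in PT cells, the summed epithelial markers are given beside its level in the other sorts. The miR-200 family with miR-141 was at 543 to 701 CPM in sham Macs and 416 to 619 at UUO-7, at 986 to 2268 in sham PDGFR-β+ cells and 893 to 1945 at UUO-7, and at 572 to 902 in sham ECs and 591 to 825 at UUO-7. These ranges overlapped between sham and UUO-7 in each type, and whether tubular RNA carried over into these sorts contributed to their miR-192-5p was not tested.

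Whether the fall at UUO-7 differed between PT cells and another cell type was tested as a difference of the changes over all 63 libraries. Against ECs, 1 of 6 members was called (16.2% of all loci): miR-194-5p at chromosome 19 fell further in PT cells by a log2 of 0.92 (value -0.92, SE 0.306, adjusted p = 0.0296), and miR-192-5p had a like value without a call (-0.94, SE 0.375, adjusted p = 0.0792). With the mouse as a block, since the cell types of a mouse come from the same animal, miR-192-5p was called too (-0.93, adjusted p = 0.0178), and the call of miR-194-5p was lost without sham mouse 2 or 4 or UUO-7 mouse 2, 4 or 5 (adjusted p up to 0.0978) and with no filter (0.104). Against Macs the single call (27.6% of all loci) was miR-194-2-3p, at -3.24, from 2, 2, 0 and 0 counts in sham Macs and 4, 11, 3 and 2 at UUO-7, and since it passed the filter in PT cells alone, nothing was read from it. The differences for miR-192-5p were -0.21 against Macs (95% CI -0.96 to 0.54, adjusted p = 0.792) and -0.61 against PDGFR-β+ cells (95% CI -1.39 to 0.17, adjusted p = 0.285). Against PDGFR-β+ cells no member was called by edgeR (0 at an unadjusted p under 0.05, 1 in DESeq2, background 27.6%), but by library size alone 2 were, with -1.47 for miR-192-5p (adjusted p = 0.00985) and -1.46 for miR-194-5p (adjusted p = 0.00308), where the median difference of all loci moved from -0.17 to -1.08 and the calls went from 96 higher and 89 lower to 52 and 174.

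The proportions of the members within a PT library do not depend on how libraries are scaled. In sham there were 44.0, 45.8, 44.5 and 45.2 counts of miR-192-5p for each count of miR-194-5p (both loci), at UUO-2 36.8, 33.7, 42.4 and 37.0, at UUO-7 39.0, 39.6, 37.9 and 41.0, and in R-UUO 30.1, 38.4, 38.5 and 37.3. All 12 libraries of the obstructed and reversed groups lay below the 4 sham libraries, that is, miR-192-5p had fallen a little more than miR-194-5p. The log2 ratio of miR-194-5p to miR-192-5p rose by 0.27 at UUO-2 and by 0.19 at UUO-7 against sham, each with an exact permutation p of 0.0286, the smallest that 4 against 4 mice allow, and an adjusted p of 0.129 over the 9 ratio tests, so neither passed the correction. The ratio of miR-192-3p to miR-192-5p was higher at UUO-7 than in sham by a log2 of 1.04 (two-sided exact permutation p = 0.0571, adjusted p = 0.171), and that of miR-215-5p to miR-192-5p by 0.89 (exact permutation p = 0.429, adjusted p = 0.588), both from few counts of the scarcer miRNA. No ratio could be formed for miR-194-1-3p, which had no counts.

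**Figure D4:**
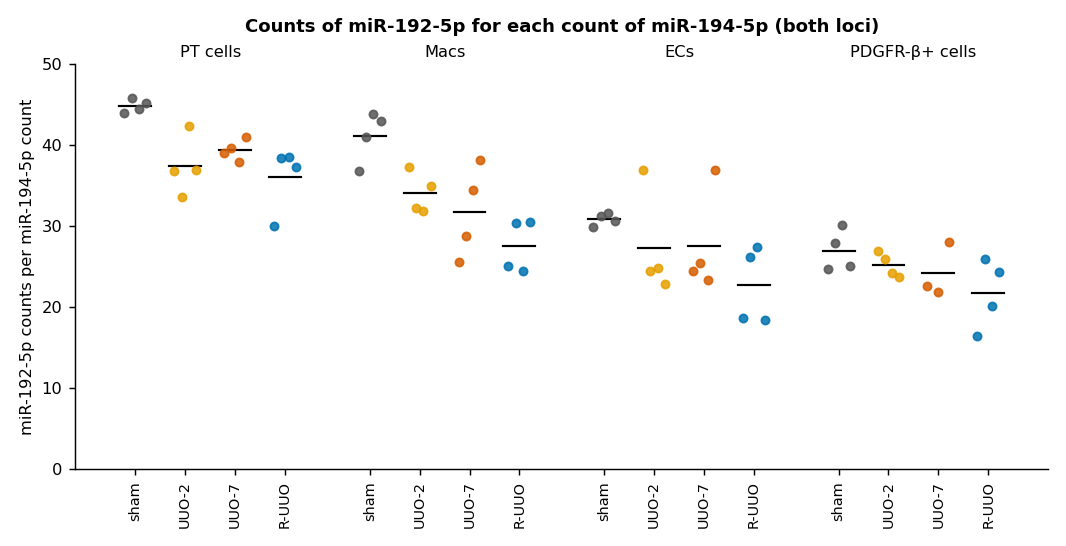
Counts of miR-192-5p for each count of miR-194-5p (both loci summed) in each library, by cell type and condition; points are mice and lines are means. Sham PT libraries lie between 44.0 and 45.8, above the 12 other PT libraries, which lie between 30.1 and 42.4.

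Across populations the proportion also differed, as medians of 38.8 counts of miR-192-5p for each of miR-194-5p in PT cells, 33.4 in Macs, 25.8 in ECs and 24.6 in PDGFR-β+ cells. In sham the ranges were 44.0 to 45.8 in PT cells, 36.8 to 43.9 in Macs, 29.9 to 31.6 in ECs and 24.6 to 30.1 in PDGFR-β+ cells. PT cells thus lay above the other 3 in sham, Macs above ECs, and ECs and PDGFR-β+ cells overlapped, which is a description with no test.

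The miRNAs with the pattern most like miR-192-5p were named by Pearson r of log2 CPM, with no test, since the libraries of a cell type share their source. Over all 63 libraries and 665 loci of other names they were miR-1968-5p (r 0.943) and miR-3073a-3p with miR-3073b-5p (both r 0.935, with the same counts in every library, so that they are not separate measurements). miR-1968-5p was at a median of 42.2 CPM in PT cells and of 0.24 to 0.67 CPM in the other types, and in PT cells it fell at UUO-7 by a log2 of 1.52 (SE 0.390, adjusted p = 0.00513). Within the 16 PT libraries and 325 loci they were miR-107-3p (r 0.963), miR-187-3p (r 0.960) and miR-181b-5p at chromosome 2 (r 0.940), and their changes at UUO-7 were -0.67, -1.43 and -1.15 (adjusted p = 0.0159, 0.00382 and 0.000555). Within the family, r to miR-192-5p was 0.992 for miR-194-5p at chromosome 19 in both sets of libraries, 0.744 for miR-194-2-3p and 0.191 for miR-192-3p in the PT libraries.

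Other miRNAs listed for the nephron epithelium did not all fall with miR-192-5p, but the list is not one of PT markers. Of a list of 14 names (the miR-30 family, the miR-200 family with miR-141, miR-204, miR-203 and miR-10a), 15 loci were tested in PT cells at UUO-7, of which 5 rose and 4 fell (25.5% and 17.6% of all loci), with a median log2 change of 0.46 beside 0.00 for all loci. miR-204-5p rose from 132 ± 24.8 to 1394 ± 294 CPM (SD, n = 4 mice, scaled within PT cells, edgeR log2 3.40, adjusted p = 4.14e-08), and miR-141-3p (3.40, adjusted p = 0.000152) and miR-200c-3p (3.02, adjusted p = 7.76e-05), of the family that represses the Zeb transcription factors, rose with it, as did miR-10a-5p (1.85) and miR-30d-5p (0.60). miR-203-3p fell by 1.03 (adjusted p = 0.000620), and miR-30e-5p and both loci of miR-30c-5p fell by 0.71, 0.65 and 0.65. In sham, miR-204-5p and miR-10a-5p, which rose, were called lower in PT cells than in the mean of the other types (log2 -2.01 and -1.09). There miR-141-3p (-0.63) and miR-30d-5p (-0.38) had negative values without a call, and miR-200c-3p was called higher (1.31). The loci that fell were all called higher in sham PT cells (miR-30e-5p 1.64, miR-30c-5p 1.52 and 1.53, miR-203-3p 0.76). At UUO-2, 5 loci of the list rose and 1 fell (14.8% and 4.24% of all loci), and in R-UUO against sham 5 rose and 1 fell (25.8% and 13%). The miR-34 family holds the best known miRNA targets of p53, which are like this family responsive to it. It was chosen after its values were seen, so these are a description, and a part of p53 was not tested. In PT cells 2 of its 3 loci were tested and both were called higher at UUO-7, beside 25.5% of all loci. miR-34a-5p rose by 0.62 (edgeR adjusted p = 0.0172) and miR-34c-5p by 1.76 (edgeR adjusted p = 0.00613). In Macs at UUO-7, 1 locus of the nephron list rose and 6 fell, beside 26.3% and 16.8% of all loci (median -0.37, all loci 0.22). In PDGFR-β+ cells 0 rose and 5 fell, beside 34% and 14.3% (median -0.55, all loci 0.50), and in ECs 0 rose and 2 fell, beside 6.18% and 5.33% (median -0.20, all loci -0.05). Neither locus of the miR-34 family tested in Macs or ECs was called at UUO-7, nor were the 3 in PDGFR-β+ cells, by edgeR.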

How the data were processed

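Per the labels and methods, the authors sorted digested kidney cortex by flow cytometry (ECs CD45-CD31+, Macs CD45+F4/80hi, PT cells CD45-CD31-LTL+, PDGFR-β+ cells CD45-CD31-). The submitters' processing notes name Trim Galore 0.4.1, cutadapt 1.1, Bowtie and GRCm38, and the methods name ShortStack. The authors deposited whole-number counts for each miRNA locus and library. How reads matching several loci were placed is not given in the sources used here. The authors removed a PDGFR-β+ library at UUO-7, which was not analysed here, and their column of totals was not used.

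Groups came from the sample labels. Counts were tested with edgeR 4.0.16 in R 4.3.3 (filterByExpr, TMM, glmQLFit and glmQLFTest, Benjamini-Hochberg over all loci tested, FDR 0.05 and fold change 1.5, or FDR 0.05 alone for differences of changes), over the 4 conditions within a cell type for injury and over 63 libraries between types. Ratios used log2 of counts plus 0.5 and two-sided exact permutation (scipy 1.17.1). A planned ratio with miR-194-1-3p was not made, since it had no counts. Scripts were tested on simulated counts. A total of 616565 to 10819385 counts per library puts a limit of 3 counts at 0.277 to 4.87 CPM, counting error only. Each replicate is a mouse, and p-values measure the spread between these mice. Library replicate numbers name a mouse within a condition, so the cell types of a mouse share an animal (93 pairs of libraries, median r of deviations 0.052, 36 above 0.1), while a number shared between conditions marks different mice.

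The members, the nephron list and the miR-34 list were chosen with earlier results of these data known. Named miRNAs are the members, the 3 loci most correlated with miR-192-5p in each set of libraries, nephron list members called in PT cells, and, chosen after their values were seen, the miR-34 family. Alternatives were DESeq2 1.42.0, library size only, no filter, loci of a name summed, only the conditions compared, a replicate block, a pseudocount of 1 and each replicate left out.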

Additional observations from a re-analysis of the deposited data

Results flagged for a closer look

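Among the 57 groups of 4 libraries in which a member had at least 3 counts in each library, 2 held a library whose gap to the next on the log2 scale was above Dixon's critical value of 0.829 of the group's range, and chance alone flags about 1 in 20 groups. Both were EC libraries of miR-215-5p: R-UUO replicate 4 held 4.15 CPM beside 1.82 to 1.97 in the others (11 counts), and sham replicate 4 held 0.355 CPM beside 1.45 to 1.75 (3 counts).

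The difference between the UUO-7 change in PT cells and that in another cell type passed the threshold for 1 of 6 members against ECs and 1 of 6 against Macs, beside 16.2% and 27.6% of all loci, so these shares do not set the members apart. miR-194-5p at chromosome 19 had -0.92 against ECs (edgeR adjusted p = 0.0296), a call lost with no filter (0.104) and without sham mouse 2 or 4 or UUO-7 mouse 2, 4 or 5. miR-194-2-3p had -3.24 against Macs (edgeR adjusted p = 0.00918), but it passed the low-count filter in PT cells alone and had at most 11 counts in a Mac library of these groups, so nothing was read from it.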

How the results depend on the processing

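Of 495 recomputed counts of members called, 446 stayed within 1.5 times the reported count, and 0 of 853 alternatives changed the sign of a member value that was called. The 853 include large differences between PT cells and the other types, such as miR-192-5p in sham (log2 5.19), where no change of sign was in question. They also include members that passed the low-count filter in PT cells alone, whose being higher there was fixed by the filter. Most alternatives left out a replicate, so the tally of signs is a description and does not measure how firm the calls are. Among values that were not called, 62 of 1317 had the other sign, as had 2 of 153 for the ratios, none of which passed the correction. In PT cells at UUO-2 the count of 1 became 2 in DESeq2, with no filter and with the 2 conditions alone, 0 by library size, with loci summed and with the replicate block (miR-192-5p -0.92, adjusted p = 0.0508), and 0 to 2 over libraries left out. In PDGFR-β+ cells at UUO-7 the count of 2 became 0 by library size, 1 with no filter and 1 with the replicate block. By library size ECs had 1 call at UUO-7 and 2 in R-UUO, and in R-UUO 0 to 1 over libraries left out. Macs at UUO-2 had 1 call with loci summed and 0 to 1 over libraries left out. For the differences between cell types at UUO-7, DESeq2 gave 2 against ECs, 2 against Macs and 1 against PDGFR-β+ cells, library size gave 2, 2 and 2, and the mouse block gave 2 against ECs, where mice left out gave 0 to 2. Numbers shared between conditions did not pair libraries (74 pairs, median r -0.013, 11 above 0.1), so the replicate block within a cell type carries a number only. The cause of these moves was not tested.

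Counts over all loci moved by more than 1.5 times where few were called. ECs at UUO-2 had 8 (16 in DESeq2, 5 by library size, 28 with no filter), and between R-UUO and UUO-7 5 (37, 25 and 39, 3 with the block and 2 with the conditions alone). PT cells at UUO-2 had 63 (96 with the conditions alone), and between R-UUO and UUO-7 5 (22, 0 and 24, 3 with loci summed, 0 with the block and 0 with the conditions alone). PDGFR-β+ cells at UUO-2 had 30 (49 with no filter), and between R-UUO and UUO-7 19 (33, 12 and 55, 7 with the conditions alone). Depth limits miR-192-3p, miR-194-2-3p and miR-215-5p most, since a few counts decide their values.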
